A study of Mus musculus with 7 samples.

Results

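The 78 genes described here encode proteins of the mitochondrial ribosome. They were taken as all genes of the count table whose mouse symbol begins with Mrpl or Mrps followed by a number, with a mean of at least 10 counts over the 7 libraries. They are 78 of 22248 genes in the table, no matching gene fell below the minimum, and all 78 passed the low-count filter of the test. RNA was measured by sequencing in synaptoneurosomes, pinched-off nerve endings that keep part of the postsynaptic side, isolated from the hippocampus of wild-type C57Bl/6J female mice. Sub-chronic AM6545 treatment is represented by 4 libraries, labelled B, D, E and F, and vehicle treatment by 3, labelled B, D and E. AM6545 blocks the cannabinoid receptor CB1, the product of Cnr1, and enters the brain poorly. The labels do not state dose, duration, age or how many mice a library holds, and nothing there says that libraries came from separate animals, so p-values measure the spread between these libraries.

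Mitochondria keep a ribosome of their own, which translates the mRNAs of the mitochondrial genome into core subunits of the respiratory chain and ATP synthase. Its RNAs are encoded in mitochondrial DNA, while its proteins are encoded in the nucleus, made in the cytosol and imported. The small subunit binds mRNA and reads codons, and the large subunit joins amino acids and is tethered to the inner membrane at the mouth of its exit tunnel. Nerve endings hold many mitochondria, and transcripts of nuclear-encoded mitochondrial proteins are found in axons and dendrites. Of the 78 genes, 51 encode proteins of the large subunit and 26 of the small subunit. Mrps18a and Mrps30 carry small-subunit names, but their products sit in the large subunit. Mrps36 met the symbol rule, but its product is now known as a subunit of the 2-oxoglutarate dehydrogenase complex, and it was kept outside both subunits. Counterparts of bacterial ribosomal proteins account for 45 of the genes, and 32 encode proteins found only in mitochondrial ribosomes.

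The libraries held 19174649 to 25894733 estimated counts. The 78 genes together took 0.325% ± 0.0157 of the counts in the AM6545 libraries (SD, n = 4) and 0.358% ± 0.0283 in the vehicle libraries (SD, n = 3). Vehicle replicate B stood apart. It held the highest value of 58 of the 78 genes, and the median of the 78 genes there was 0.28 above their mean over libraries on the log2 scale. The same median was 0.01 in vehicle replicate D, 0.03 in vehicle replicate E, and between -0.18 and 0.01 in the AM6545 libraries. AM6545 replicate E was the lowest library for 50 of the genes. Vehicle replicate B also stood at the end of a gradient over all genes: values there were higher by 0.139 on the log2 scale for each 10 points of GC content and lower by 0.097 for each doubling of transcript length, and AM6545 replicate E lay at the other end, with slopes of -0.125 and 0.068. For this reason the results are given also without vehicle replicate B and after removal of each library's trend with GC content and length. The part of these trends in the group difference was not tested.

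**Figure D1:**
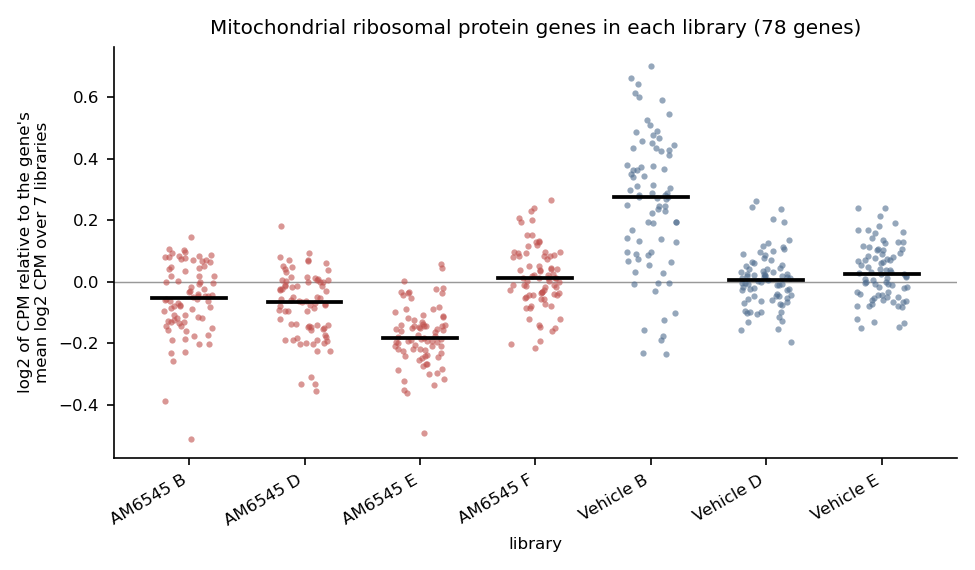
Level of each of the 78 mitochondrial ribosomal protein genes in each library, as log2 CPM relative to the gene's mean over the 7 libraries. Vehicle replicate B lies highest, with a median of 0.28, and AM6545 replicate E lowest, with a median of -0.18.

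Levels per transcript length, in TPM, which scales counts for library size and transcript length, spread over a 16-fold range among the 78 genes, with a median of 64.8 TPM against 13.6 TPM over all genes tested. The highest were Mrpl42, a mitochondria-specific protein of the large subunit, at 199 ± 20.2 TPM (SD, n = 7), and Mrps33, a mitochondria-specific protein of the small subunit, at 176 ± 15.6. Mrpl27 at 160 ± 13.7 TPM and Mrps18a at 160 ± 9.47 TPM followed, and for neighbours in this order the ranges of mean ± SD overlapped. At the low end stood Mrpl1, the counterpart of uL1 where spent tRNAs leave, with 12.4 ± 1.55 TPM (SD, n = 7). Mrpl47, Mrps35 and Mrps30 came next, at 17.0 ± 2.06, 21.5 ± 2.84 and 22.3 ± 1.77 TPM. The ranges of mean ± SD overlapped between neighbours among these, except for Mrpl1 and Mrpl47.

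In the comparison of AM6545 with vehicle, most of the 78 genes had somewhat lower values after AM6545, and no gene passed the test. In edgeR's quasi-likelihood test with Benjamini-Hochberg adjustment over all 14654 genes tested, 0 of the 78 had an adjusted p under 0.05, and the smallest was 0.199. Over all genes 1 passed, which is 0.00682%. At an unadjusted p under 0.05, 27 of the 78 were lower and 0 higher in AM6545, or 34.6% lower, where 8.70% of all genes were lower and 5.86% higher. The log2 fold change was below 0 for 63 of the 78 genes (80.8%), against 48.6% of all genes. Its median was -0.18, against 0.01 for all genes, and single values ran from -0.62 to 0.17 with standard errors of 0.09 to 0.16. In 21 of the 78 genes (26.9%) every AM6545 library lay below every vehicle library, against 7.19% of all genes, and in 1 every AM6545 library lay above, against 6.63%.

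Other tools called few of these genes. DESeq2 called 2 of the 78, where it called 1.40% of all genes. They were Mrps21 at a log2 fold change of -0.57 with a DESeq2 adjusted p of 0.0126 and Mrpl52 at -0.62 with 0.0446. Limma-voom with quality weights called Mrps21 alone, at -0.49 with an adjusted p of 0.0398, where it called 0.805% of all genes. In that fit the median of the 78 genes was -0.10, with 24 lower and 2 higher at an unadjusted p under 0.05. Over all genes the same fit had 3527 of 14654 at that level, lower and higher together, more than the 2134 in edgeR. Single libraries weighed on these counts. Without vehicle replicate B the median was -0.08, and 6 of the 78 genes were lower at an unadjusted p under 0.05 in edgeR, against 3.69% of all genes. All 6 were among the 27: Mrpl52, Mrps24, Mrpl34, Mrps12, Mrps21 and Mrpl33. Without vehicle replicate E edgeR called 7 of the 78 at an adjusted p under 0.05, where it called 6.38% of all genes. Every AM6545 library lay below vehicle replicates D and E in 21 of the 78 genes, against 8.61% of all genes. A gene below every vehicle library must also lie below D and E, so this count could not fall under the 21 given above. The part of vehicle replicate B in the separation was not tested.

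**Figure D2:**
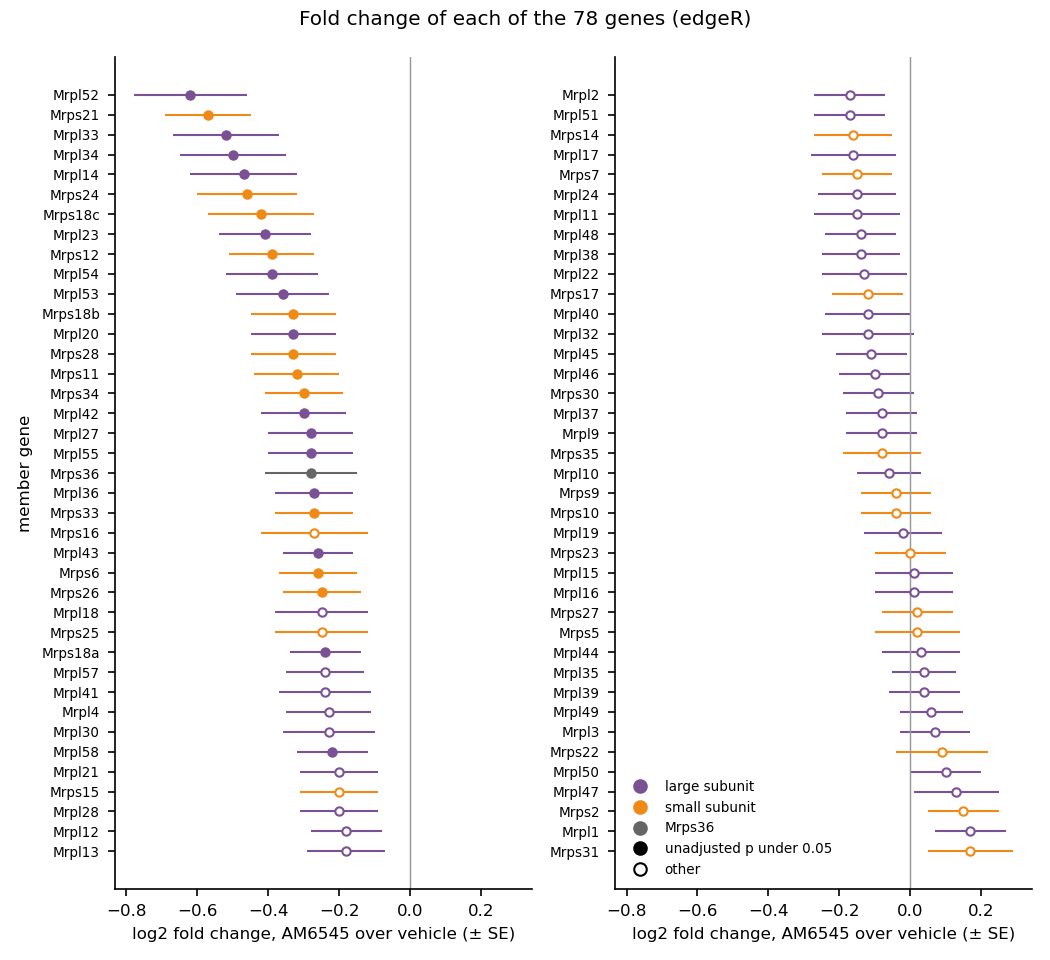
Log2 fold change of AM6545 over vehicle, with its standard error, for each of the 78 genes in edgeR. Filled points have an unadjusted p under 0.05, and all 27 of them lie left of 0, while the highest values, at 0.17, belong to Mrps31 and Mrpl1.

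The smallest p among the 78 belonged to Mrps21, the counterpart of the small bacterial protein bS21 in the small subunit. Its gene lies at chr3:95862634-95871519 on the minus strand (GENCODE M21, GRCm38). It had 28.8, 28.1, 26.2 and 28.2 CPM, counts scaled to library size, in AM6545 replicates B, D, E and F and 49.6, 38.8 and 35.2 CPM in vehicle replicates B, D and E. The AM6545 libraries lay close together and all below every vehicle library. The means were 27.8 ± 1.13 (SD, n = 4) and 41.2 ± 7.53 CPM (SD, n = 3), and edgeR gave -0.57 on the log2 scale (SE 0.12), adjusted p 0.199.

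Mrpl52, a mitochondria-specific protein of the large subunit, had the lowest log2 fold change, -0.62 (SE 0.16, edgeR adjusted p 0.199). The gene lies at chr14:54426909-54429756 on the plus strand. It had 10.4, 8.13, 7.39 and 9.09 CPM in AM6545 replicates B, D, E and F and 16.5, 12.3 and 11.5 CPM in the vehicle replicates B, D and E. The groups did not overlap, and vehicle replicate B was the highest library.

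Promoters are shown for these 2 genes, for Mrpl1, which with Mrps31 had the highest fold change, and for the pair Mrps11 and Mrpl46, which start back to back and share promoter sequence. The stretches run from 250 bases before to 50 bases after the transcription start, from RefSeq on GRCm38.p6, each on its gene's own strand, 5′ to 3′. Capitals mark matches, on either strand, to the motifs of NRF1 (its palindromic consensus), of ETS factors such as GABP (CCGGAAG) or of YY1 (AAGATGGCG), regulators long tied to nuclear genes of mitochondrial proteins.
Mrps21, chr3:95871465-95871764, minus strand: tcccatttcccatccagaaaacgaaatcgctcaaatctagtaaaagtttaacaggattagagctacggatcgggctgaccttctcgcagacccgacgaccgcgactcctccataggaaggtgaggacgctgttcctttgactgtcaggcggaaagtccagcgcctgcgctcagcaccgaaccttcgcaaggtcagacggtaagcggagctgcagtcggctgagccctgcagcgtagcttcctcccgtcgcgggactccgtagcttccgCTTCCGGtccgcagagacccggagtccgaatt
Mrpl52, chr14:54426659-54426958, plus strand: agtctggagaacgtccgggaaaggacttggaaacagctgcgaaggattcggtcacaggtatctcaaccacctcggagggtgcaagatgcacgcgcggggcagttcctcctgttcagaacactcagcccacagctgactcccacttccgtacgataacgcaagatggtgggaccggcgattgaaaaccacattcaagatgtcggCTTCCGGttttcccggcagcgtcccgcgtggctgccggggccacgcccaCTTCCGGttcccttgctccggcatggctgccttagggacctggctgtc
Mrpl1, chr5:96209865-96210164, plus strand: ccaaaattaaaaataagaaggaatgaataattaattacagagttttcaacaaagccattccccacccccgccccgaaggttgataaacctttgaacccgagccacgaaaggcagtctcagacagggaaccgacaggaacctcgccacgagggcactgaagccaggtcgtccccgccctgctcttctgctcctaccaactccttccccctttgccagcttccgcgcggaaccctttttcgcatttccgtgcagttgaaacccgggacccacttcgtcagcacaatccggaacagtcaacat
Mrps11, chr7:78782881-78783180, plus strand: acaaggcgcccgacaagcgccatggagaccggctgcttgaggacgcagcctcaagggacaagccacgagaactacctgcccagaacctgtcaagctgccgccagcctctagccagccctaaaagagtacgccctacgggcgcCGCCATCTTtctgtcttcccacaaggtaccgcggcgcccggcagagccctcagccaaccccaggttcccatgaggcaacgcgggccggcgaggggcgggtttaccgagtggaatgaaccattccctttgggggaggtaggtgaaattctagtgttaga
Mrpl46, chr7:78783040-78783339, minus strand: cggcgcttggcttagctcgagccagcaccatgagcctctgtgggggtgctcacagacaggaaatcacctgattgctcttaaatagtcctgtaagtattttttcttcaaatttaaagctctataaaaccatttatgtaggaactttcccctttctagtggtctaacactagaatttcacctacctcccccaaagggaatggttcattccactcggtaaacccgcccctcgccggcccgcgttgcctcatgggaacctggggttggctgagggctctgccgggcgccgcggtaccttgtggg
An ETS match began 19 bases after the start of Mrps21, and Mrpl52 had ETS matches at -47 and 3. Mrps11 had a YY1 match at -108, and the windows of Mrpl1 and Mrpl46 held none of the 3 motifs. The starts of Mrps11 and Mrpl46 lie 41 bases apart, and their windows share 141 bases.

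The next genes by p were also short. They also separated the groups, which partly follows from choosing them by p in the same libraries. Mrpl34 and Mrpl33 encode small bacterial-type proteins of the large subunit. Mrpl34 had 15.9, 14.8, 13.6 and 14.8 CPM in AM6545 replicates B, D, E and F and 26, 20.4 and 16.2 CPM in vehicle replicates B, D and E. Mrpl33 had 31.3, 27.7, 29.0 and 31.0 CPM after AM6545 and 55.9, 33.7 and 38.4 CPM after vehicle. For Mrpl34 the lowest vehicle library lay just above the highest AM6545 library, and for Mrpl33 vehicle replicate B stood far above the rest. Their log2 fold changes were -0.50 (SE 0.15) and -0.52 (SE 0.15), both with an edgeR adjusted p of 0.212.

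Mrpl14, the counterpart of uL14 on the face of the large subunit that meets the small one, had 14.8, 15.5, 14.7 and 17.0 CPM after AM6545 and 27.6, 18.9 and 18 CPM after vehicle. Vehicle replicates D and E lay close above the highest AM6545 library, and the log2 fold change was -0.47 (SE 0.15, edgeR adjusted p 0.231). Mrpl54, a mitochondria-specific protein, had 17.5, 15.2, 18.6 and 17.4 CPM after AM6545 and 27.6, 19.8 and 20.3 CPM after vehicle. Its log2 fold change was -0.39 (SE 0.13, edgeR adjusted p 0.249), and the groups were again separate with vehicle replicate B highest.

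**Figure D3:**
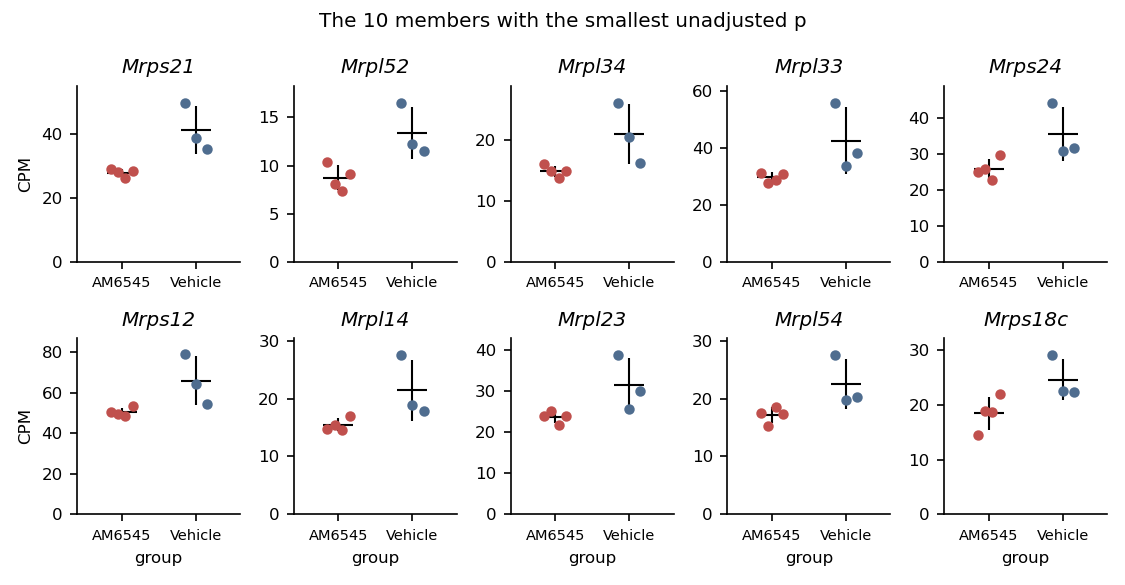
CPM in each library of the 10 mitochondrial ribosomal protein genes with the smallest p, with the mean of each group. In all 10 every AM6545 library lies below every vehicle library, and vehicle replicate B is the highest. The separation partly follows from choosing these genes by p in the same libraries.

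Of the 26 genes of the small subunit, 21 had a log2 fold change below 0, against 48.6% of all genes, and the median was -0.22. At an unadjusted p under 0.05, 11 of the 26 were lower, against 8.70% of all genes. Genes of the decoding and mRNA path had 3 of 5 at that level, a median of -0.32 and a median transcript length of 970 bases. Mrps12, the counterpart of uS12 at the decoding centre, had 50.4, 49.5, 48.4 and 53.2 CPM in AM6545 replicates B, D, E and F and 78.8, 64.3 and 54.5 CPM in vehicle replicates B, D and E. Vehicle replicate E exceeded the highest AM6545 library by little, and the log2 fold change was -0.39 (SE 0.12, edgeR adjusted p 0.231). Mrps24, the counterpart of uS3 at the mRNA entry, had 25, 25.8, 22.9 and 29.8 CPM after AM6545 and 44.2, 30.9 and 31.6 CPM after vehicle. Its log2 fold change was -0.46 (SE 0.14, edgeR adjusted p 0.230), with separate groups. Mrps11, the counterpart of uS11 at the mRNA exit, followed at -0.32 (SE 0.12, edgeR adjusted p 0.283), also without overlap. Mrps7 at -0.15 and Mrps5 at 0.02, the counterparts of uS7 and uS5, had overlapping groups, and their transcripts are longer, at 1887 and 3573 bases against 745 for Mrps12.

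Mammals have 3 proteins related to bacterial bS18, and all 3 of their genes were lower at an unadjusted p under 0.05, against 8.70% of all genes. Transcripts of Mrps18c, Mrps18a and Mrps18b are short, at 619, 888 and 1057 bases. Of all genes with transcripts under 1000 bases, the class of Mrps18c and Mrps18a, 47.2% were lower at that level. Among genes of 1000 bases or more, the class of Mrps18b, 6.23% were. Mrps18c had 14.5, 18.8, 18.6 and 22 CPM in AM6545 replicates B, D, E and F and 29.1, 22.6 and 22.3 CPM in vehicle replicates B, D and E. Its groups were separate by a narrow margin, between AM6545 replicate F and vehicle replicate E, and the log2 fold change was -0.42 (SE 0.15, edgeR adjusted p 0.257). Mrps18b had 25.3, 25.8, 25.5 and 31.5 CPM after AM6545 and 36.9, 29.95 and 35.1 CPM after vehicle. AM6545 replicate F lay above vehicle replicate D here, and the log2 fold change was -0.33 (SE 0.12, edgeR adjusted p 0.261). Mrps18a, whose product belongs to the large subunit, had 70.4, 67.5, 64.7 and 74.9 CPM after AM6545 and 90.3, 77.1 and 77.7 CPM after vehicle, and the groups were separate at -0.24 on the log2 scale (SE 0.10, edgeR adjusted p 0.315). Without vehicle replicate B the median of the 3 was -0.26, and with GC and length trends removed it was -0.12.

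Of the 51 genes of the large subunit, 41 had a log2 fold change below 0, against 48.6% of all genes, and the median was -0.17. At an unadjusted p under 0.05, 15 of the 51 were lower, against 8.70% of all genes. The share at that level was 29.4%, against 42.3% in the small subunit, and the difference between the subunits was not tested. The 3 genes of the stalk, which recruits translation factors, had no gene at that level and a median transcript length of 1708 bases. Mrpl12, the multi-copy stalk protein, had 88.9, 86.4, 75.9 and 82.7 CPM in AM6545 replicates B, D, E and F and 106, 88.5 and 88.5 CPM in vehicle replicates B, D and E. Only AM6545 replicate B overlapped the vehicle libraries, and the log2 fold change was -0.18 (SE 0.10, edgeR adjusted p 0.442). Mrpl11 at the stalk base stood at -0.15 (SE 0.12), and Mrpl10, which anchors Mrpl12, at -0.06 (SE 0.09). Mrpl10 had 79.4 ± 2.64 CPM after AM6545 (SD, n = 4) and 82.8 ± 5.54 after vehicle (SD, n = 3), among the smallest differences.

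Around the peptide exit tunnel, 1 of 6 genes was lower at an unadjusted p under 0.05, against 8.70% of all genes, and the median was -0.14. That gene was Mrpl23, the counterpart of uL23 at the tunnel mouth, with 24.1, 25.2, 21.6 and 24.0 CPM in AM6545 replicates B, D, E and F and 38.9, 25.8 and 29.9 CPM in vehicle replicates B, D and E. Vehicle replicate D lay just above AM6545 replicate D, and the log2 fold change was -0.41 (SE 0.13, edgeR adjusted p 0.245). Mrpl45, which ties the tunnel mouth to the inner membrane, had 47.4 ± 3.52 CPM after AM6545 (SD, n = 4) and 51.1 ± 4.18 after vehicle (SD, n = 3), a log2 fold change of -0.11 (SE 0.10). Mrpl17, Mrpl22 and Mrpl24 stood at -0.16, -0.13 and -0.15, and Mrpl47, the counterpart of uL29, at 0.13, all with overlapping groups.

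In the central protuberance, the crown of the large subunit that contacts tRNAs, all 6 genes had log2 fold changes below 0, against 48.6% of all genes. Their median was -0.14. Mrpl58, a peptidyl-tRNA hydrolase built into the ribosome, had 40.3 ± 2.25 CPM after AM6545 (SD, n = 4) and 47.0 ± 4.68 after vehicle (SD, n = 3). It was the only gene of the 6 lower at an unadjusted p under 0.05 in edgeR, against 8.70% of all genes. Its log2 fold change was -0.22 (SE 0.10, edgeR adjusted p 0.341), and its groups overlapped. Mrpl18 at -0.25, Mrpl48 at -0.14, Mrpl38 at -0.14, Mrpl40 at -0.12 and Mrpl46 at -0.10 had overlapping groups too. In the peptidyl transferase region, where peptide bonds form, Mrpl27 stood at -0.28 (SE 0.12, edgeR adjusted p 0.302) with separate groups. It had 57.5, 60.0, 57.3 and 57.9 CPM after AM6545 and 85.1, 62.8 and 64.3 CPM after vehicle. Mrpl2 at -0.17, Mrpl16 at 0.01 and Mrpl3 at 0.07, the other genes of the region, had overlapping groups.

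Log2 fold changes above 0 were found in 15 of the 78 genes and reached 0.17. Mrps31 had 27.6, 29.2, 23.0 and 28.6 CPM in AM6545 replicates B, D, E and F and 21.8, 24.4 and 26.2 CPM in vehicle replicates B, D and E, which is higher by 0.17 on the log2 scale (SE 0.12, edgeR adjusted p 0.499). Mrpl1 had 21, 20.9, 19.6 and 23.1 CPM after AM6545 and 17.8, 18.5 and 20.02 CPM after vehicle, which gave 0.17 on the log2 scale (SE 0.10, edgeR adjusted p 0.453). AM6545 replicate E was the lowest AM6545 library for both genes and lay within the vehicle range. Mrps2, the counterpart of uS2 at the mRNA exit side, stood at 0.15 (SE 0.10, edgeR adjusted p 0.491) with overlapping groups. Mrpl49, singled out after its values were seen, was the gene whose AM6545 libraries all lay above the vehicle libraries, with 52.3 ± 1.75 CPM (SD, n = 4) against 50.1 ± 1.05 (SD, n = 3).

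The lower values lay mostly with short transcripts. Across the 78 genes, which share the same 7 libraries, the log2 fold change correlated with log2 transcript length at Spearman rho 0.75 (Pearson 0.71) and with GC content at rho -0.51 (Pearson -0.54), while with the mean level rho was 0.05. Over 14633 genes with a length the rho with length was 0.25 and with GC content -0.42. Among the 26 members with the shortest transcripts, 21 were lower at an unadjusted p under 0.05, against 8.70% of all genes. Their median was -0.32. Among the middle 26, 5 were lower and the median was -0.15, and among the longest 26, 1 was lower, Mrps26, with a median of -0.07.

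The 27 members with transcripts under 1000 bases had a median log2 fold change of -0.32, and so did all 882 genes tested of that length. Of the 27, 22 (81.5%) were lower at an unadjusted p under 0.05, against 47.2% of the 882. For members of 1000 bases or more the median was -0.11 with 5 of 51 lower (9.80%), against 0.02 and 6.23% of 13751 genes. After each library's trend with GC content and length was removed, the median of the 78 genes was -0.01, 41 had a log2 fold change below 0, and 6 were lower at an unadjusted p under 0.05 in edgeR, against 4.49% of all genes. Those 6 were Mrps25 at -0.36, Mrpl51 at -0.30, Mrps30 at -0.28, Mrps14 at -0.28, Mrpl33 at -0.25 and Mrps33 at -0.21, and Mrpl33 and Mrps33 alone were also among the 27. Of the genes described above, Mrps21 then stood at -0.08, Mrpl52 at -0.02 and Mrps18c at -0.12. The values of Mrpl34, Mrps24, Mrps12, Mrpl14, Mrpl23, Mrpl54, Mrps18a and Mrpl27 turned to between 0.01 and 0.16, and that of Mrpl1 turned to -0.05. Within the corrected values the relation with length had the opposite sign, rho -0.44, and that with GC content was 0.46, whereas over all genes they were 0.00 and 0.03. The corrected median was 0.03 in the shortest 26 and -0.14 in the longest 26. Whether treatment or these library trends set the lower values cannot be told apart by the correction, since it also removes any treatment effect that follows length or GC content.

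**Figure D4:**
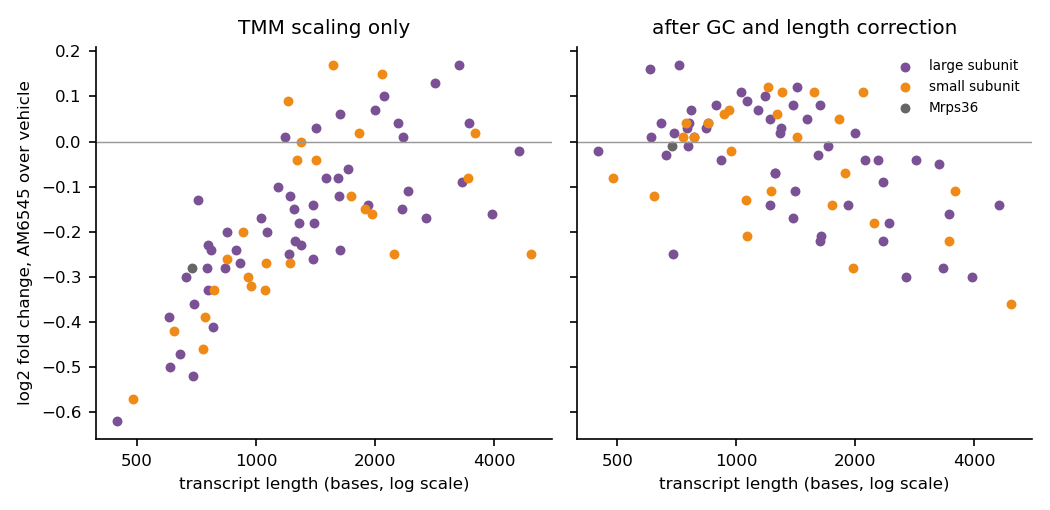
Log2 fold change of AM6545 over vehicle against transcript length (log axis) for the 78 genes, as fitted and after each library's trend with GC content and length was removed. As fitted, the 26 shortest transcripts have a median of -0.32 and the 26 longest of -0.07, while after the correction these medians are 0.03 and -0.14.

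Single transcripts gave a similar picture. Of 343 listed transcripts of the 78 genes, 208 passed the low-count filter, at least 1 for every gene. In edgeR 0 of the 208 had an adjusted p under 0.05, against 0.0177% of 33962 transcripts tested. At an unadjusted p under 0.05, 28 were lower and 0 higher, against 4.50% and 3.89% of all. Without vehicle replicate B, 7 were lower and 3 higher at that level, and without vehicle replicate E, 39 and 1. Shares of all transcripts in these fits are not given here. DESeq2 called 1, Mrps21-201, at -0.56 (SE 0.15) with a DESeq2 adjusted p of 0.0229. The transcript with the largest share of its gene's values was protein coding for 71 of the 78 genes and held over 50% of the gene for 73. Mrps21-201, which holds nearly all of Mrps21, had an edgeR log2 fold change of -0.56 (adjusted p 0.554), Mrpl52-201 had -0.66 and Mrpl33-201 had -0.58.

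Mrpl38-205, a retained-intron transcript of the gene for a central protuberance protein, had the largest fold change among the transcripts with the smallest p. It stood at 4.16, 2.84, 2.37 and 3.91 CPM in AM6545 replicates B, D, E and F and 4.84, 7.96 and 11.5 CPM in vehicle replicates B, D and E. The groups did not overlap, and here vehicle replicate B was the lowest vehicle library. Its log2 fold change was -1.29 (SE 0.34, edgeR adjusted p 0.559), and its share of the gene was 5.71% ± 0.972 after AM6545 (SD, n = 4) and 12.8% ± 4.55 after vehicle (SD, n = 3). For Mrps24 the leading transcript, with 74.7% of the gene, is annotated as a retained intron.

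Counts of some members are uncertain. The exons of 33 genes overlap another gene, for 25 of them on the opposite strand only, and the use of strand in counting is not given in the sources used here. Mrps24 shares 226 bases with Urgcp on the same strand, and Mrps11 and Mrpl46 share 173 bases with each other. A near-identical copy elsewhere in the genome, of at least 98% identity over at least 200 bases, was found for 10 genes, all of them processed pseudogenes that the count table does not list, such as Mrpl23-ps1 identical to Mrpl23 over 540 bases. The 40 genes with neither an overlap nor a copy had a median log2 fold change of -0.15. At an unadjusted p under 0.05, 10 of them (25%) were lower, against 8.70% of all genes. Without vehicle replicate B their median was -0.06 with 4 lower, against 3.69% of all genes. With GC and length trends removed it was 0.01 with 1 lower, against 4.49%.

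Promoter windows were in the RefSeq table for 69 of the 78 genes, 75 windows in all. The ETS motif CCGGAAG, searched on both strands, was in 34.7% of the members' windows, against 15.3% of 14623 windows of genes tested and 8.86% of all 32851 windows of that length. The YY1 motif AAGATGGCG was in 10.7% of the members' windows against 2.58% of those of genes tested, and the NRF1 consensus in 4% (Mrpl9, Mrpl32 and Mrpl39) against 1.83%. The GC box GGGCGG was in 52.0% against 59.8%, and the letters TATAAA in 6.67% against 7.43%. The 26 genes with an ETS match had a median log2 fold change of -0.25, and the genes with a window but no such match had -0.12. For YY1 the medians were -0.26 with and -0.17 without a match. NRF1 went the other way, with -0.08 for the 3 genes with a match and -0.19 without. A match describes the letters only, and the members' lengths were not balanced between these groups.

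Other genes of mitochondrial translation are given by list, beside the 8.70% of all genes that were lower and 5.86% that were higher at an unadjusted p under 0.05. Of 5 further mitoribosomal proteins whose symbols do not begin with Mrp, 3 were lower and 0 higher at an unadjusted p under 0.05, with a median of -0.25. Chchd1 stood at -0.37 and Aurkaip1 at -0.29, while Dap3 and Ptcd3 stood at 0.06 and 0.26. Of 15 translation factors and RNA regulators, 1 was lower and 1 higher, a share near that of all genes, with a median of 0.00: Slirp, an RNA-binding protein that stabilises mitochondrial mRNAs, at -0.47 (SE 0.12, edgeR adjusted p 0.199) and Mtif2, the initiation factor that brings the first tRNA, at 0.25. Of 25 assembly factors, the GTPases Mtg2 at -0.24 and Gtpbp10 at 0.31 were the lower and the higher one, again a share no larger than that of all genes, and the median was 0.01. Of 20 mitochondrial aminoacyl-tRNA synthetases, which charge tRNAs, 1 was lower, Lars2 at -0.52, and 1 higher, Rars2 at 0.27, a share near that of all genes, with a median of 0.08. Of 13 genes for mitochondrial DNA expression none was at that level in edgeR, with a median of 0.09, led by Pnpt1 at 0.29 and Tfb2m at 0.16.

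The mRNAs that this ribosome translates had lower values as well: 10 of 13 mitochondrially encoded mRNAs were at an unadjusted p under 0.05, all 13 had log2 fold changes below 0, and the median was -0.44, with mt-Nd3 at -0.84 and mt-Nd4l at -0.42. At that level 8.70% of all genes were lower. Without vehicle replicate B the median of the 13 mRNAs was -0.18 with 3 lower, against 3.69% of all genes. With GC and length trends removed it was -0.34 with 10 lower, against 4.49%. Of the 77 nuclear-encoded respiratory chain genes tested, 54 were lower and 0 higher at an unadjusted p under 0.05, against 8.70% and 5.86% of all genes. Their median was -0.41, -0.23 without vehicle replicate B and -0.03 once GC and length trends were removed. Cox8a stood at -0.69 and Uqcr11 at -0.61. Of 76 cytosolic ribosomal protein genes, 70 were lower and 0 higher, with a median of -0.47 and -0.12 after the correction, Rps29 at -0.77 and Rps26 at -0.61 among them. The 20 genes of the mitochondrial matrix, membranes and import had a median of -0.01 and 0.04 after the correction, with Hspe1 at -0.35 and Tomm70a at 0.32. Their transcripts were longer, with a median of 1909 bases. It was 763 in the respiratory chain list, 761 in the cytosolic ribosomal list and 784 for the mitochondrially encoded mRNAs. Of all genes with transcripts under 1000 bases, 47.2% were lower at an unadjusted p under 0.05, though each of these lists also holds longer ones. The median GC content was 52.1%, 52.5% and 37.1% in the same order. The 8 regulators of nuclear genes for mitochondria had a median of 0.09, with Gabpb1, which encodes a GABP subunit, at 0.24 and Yy1 at -0.30. These lists share libraries with the 78 genes, and differences between lists were not tested.

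**Figure D5:**
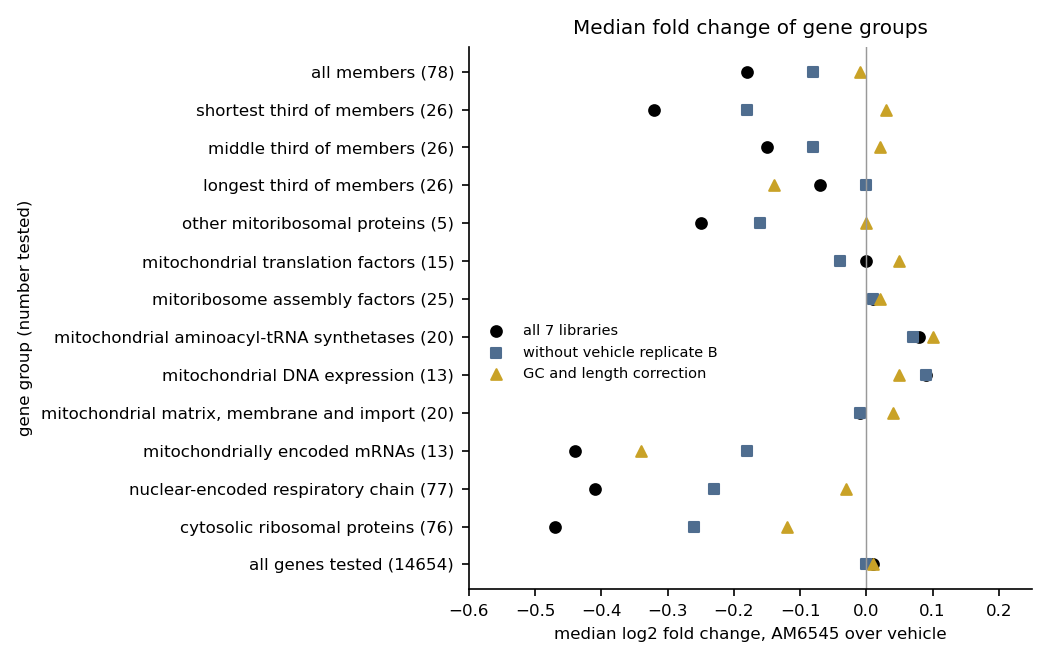
Median log2 fold change of AM6545 over vehicle for the mitochondrial ribosomal protein genes, groups of them by transcript length and related gene lists, with all 7 libraries, without vehicle replicate B, and after removal of GC and length trends. Medians of the 78 genes are -0.18, -0.08 and -0.01 in that order, and those of the mitochondrially encoded mRNAs -0.44, -0.18 and -0.34.

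Markers of the cell types that a synaptoneurosome preparation can hold were all detected. The summed level of 12 neuron markers was 11673 to 11836 CPM after AM6545 and 10874 to 11480 after vehicle, and none of the 12 was at an unadjusted p under 0.05 in edgeR. The 12 microglia markers summed to 1060 to 1161 and 1106 to 1413 CPM. At that level 7 of 12 were lower, against 8.70% of all genes, and the median log2 fold change was -0.33. Without vehicle replicate B this median was -0.24 with 6 of 12 lower, against 3.69% of all genes. With GC and length trends removed it was -0.14 with 1 of 12 lower, against 4.49%. Summed ranges were 2616 to 2978 and 2649 to 3187 CPM for 10 astrocyte markers, with 1 of 10 lower. They were 17567 to 20694 and 17303 to 23558 CPM for 10 oligodendrocyte markers, with 2 of 10 lower. For 9 choroid plexus markers they were 439 to 2079 and 1640 to 2904 CPM, with a median of -0.37 and none at that level. A single library, AM6545 replicate F at 439 CPM, stood apart here: the other AM6545 libraries had 1206 to 2079 CPM, and without it the median was -0.06. The median of the 78 mitochondrial ribosomal protein genes without that library was -0.19. The summed ranges for 10 endothelial and mural markers were 40.8 to 45.4 and 36.5 to 43.6 CPM. No marker was at 0 in all libraries. In bulk samples fewer cells or endings of a type and less RNA in each cannot be told apart, and the part of these markers in the result was not tested.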

How the data were processed

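RNA was purified with the RNeasy mini kit and libraries were made with a SMARTer Ultra Low Input kit, per the labels' protocols. The deposited values are estimated counts per gene and per transcript, made with Salmon 1.5.2 on mm10 per the submitters' processing notes. Not given in the sources used here are the annotation release and the strand setting. Symbols, lengths, GC content and gene positions came from GENCODE M21 (GRCm38), which held 22148 of the 22248 gene identifiers. The deposited identifier had a higher version for 22135 of them, so the models used in counting may differ from M21.

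Estimated counts were rounded and tested with edgeR 4.0.16 (limma 3.58.1, R 4.3.3): quasi-likelihood, TMM scaling, filterByExpr, robust fit, no covariates, Benjamini-Hochberg adjustment over all genes or transcripts. CPM uses TMM library sizes, and TPM divides by M21 transcript length. The GC and length correction subtracted lowess trends (span 0.3) per library. Alternatives were DESeq2 1.42.0, limma-voom, other scalings and filters, a replicate block, transcripts summed per gene and leaving out each library. The code was checked on simulated data. Members and gene lists were chosen with earlier results of these data known. Named were the 10 members with the smallest p, the 3 highest and 3 lowest fold changes, the 4 highest and 4 lowest levels per length, members of listed ribosome positions, 2 genes per pathway list and the 4 transcripts with the smallest p. Marker lists are given as counts and summed levels.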

Additional observations from a re-analysis of the deposited data

Results flagged for a closer look

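Among the 4 AM6545 libraries, 43 values were examined for a library far from the others, and 1 was found where chance gives about 2.15. It was Mrps18b, related to bacterial bS18, where AM6545 replicate F had 31.5 CPM and the rest of that group had values from 25.3 to 25.8.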

How the results depend on the processing

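The count of member genes at an adjusted p under 0.05, 0 in edgeR, was 2 with DESeq2 and 1 with limma-voom, and 0 to 7 when each library was left out, 7 without vehicle replicate E. For transcripts it was 1 with DESeq2. The 27 genes at an unadjusted p under 0.05 became 6 after the GC and length correction and 6 to 32 when each library was left out, with 6 without vehicle replicate B, 16 without AM6545 replicate D and 17 without AM6545 replicate E. The median log2 fold change of -0.18 became -0.01 after the correction and -0.10 with limma-voom, where 24 genes were lower and 2 higher at an unadjusted p under 0.05. Over all genes limma-voom had 3527 of 14654 at that level, lower and higher together. The median of the member genes ran from -0.23 to -0.08 when each library was left out. The count at an unadjusted p was 16 with the replicate block and 3 with the block and correction together, where the median was -0.02. Deviations of AM6545 and vehicle libraries with the same letter had correlations of -0.26 for B, -0.13 for D and -0.18 for E. The labels do not state what the letters mark, and whether libraries with the same letter share an origin was not tested.

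Of 40 named members under 18 alternatives each, 663 values kept direction and side of the threshold, 10 newly passed it and 47 reversed. No member passed it in the main fit, so none could lose it. Values that kept direction could still shrink: after the correction Mrps21 went from -0.57 to -0.08 and Mrpl52 from -0.62 to -0.02. Reversed after the correction were Mrpl34 (0.01), Mrps24 (0.01), Mrps12 (0.04), Mrpl14 (0.04), Mrpl23 (0.01), Mrpl54 (0.16), Mrpl1 (-0.05), Mrps18a (0.08), Mrpl27 (0.03), Mrpl47 (-0.04), Mrpl12 (0.02), Mrpl2 (0.11), Mrpl38 (0.08), Mrpl22 (0.17), Mrpl40 (0.05), Mrpl46 (0.07) and Mrps5 (-0.11). With the replicate block and correction these were Mrpl34 (0.04), Mrps12 (0.05), Mrpl14 (0.03), Mrpl23 (0.03), Mrpl54 (0.18), Mrpl1 (-0.11), Mrps18a (0.07), Mrpl27 (0.05), Mrpl47 (-0.12), Mrpl12 (0.04), Mrpl2 (0.12), Mrpl38 (0.08), Mrpl22 (0.15), Mrpl40 (0.01), Mrpl46 (0.08) and Mrps5 (-0.13). Limma-voom reversed Mrpl11 (0.003) and Mrpl40 (0.01), while the replicate block and the filter at a mean of 50 counts each reversed Mrpl16 (-0.004). When each library was left out, Mrpl17 ran from -0.24 to 0.01, Mrpl22 from -0.20 to 0.01, Mrps5 from -0.04 to 0.14 and Mrpl16 from -0.08 to 0.07. The correction also removes any treatment effect that follows length or GC content. The cause of the other changes was not tested. Totals of 19174649 counts or more gave 157 to 376 counts for the lowest member in each library. How far depth or the 3 vehicle libraries limited the calls was not tested.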
